A study of Mus musculus with 12 samples.

Results

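Salivary tumors that carried the p53 missense mutation R172H on both alleles were compared with salivary tumors that carried wild-type p53. Of the 12 tumors of the series, the 4 labelled MMTV-ras/p53R172H/R172H (called MT) and the 4 labelled MMTV-ras/p53+/+ (called WT) were taken by their genotype labels. The 4 tumors without p53, labelled MMTV-ras/p53-/- (called KO), entered the fit only to help estimate the spread between tumors. Each tumor was hybridised to 1 Affymetrix mouse array, whose 22690 probe sets (groups of oligonucleotides that read 1 transcript) each gave a level on the log2 scale, so that a difference of 1 is a 2-fold change. After 64 control probe sets were set aside, 22626 probe sets were tested, and 12399 genes had at least 1 probe set with a single gene name.

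All groups shared the MMTV-ras transgene, in which the promoter of mouse mammary tumor virus drives an activated Hras oncogene in secretory epithelia such as the salivary gland. The mice were of a mixed C57BL/6 and BALB/c background. The study gave doxorubicin to some tumor-bearing mice of each genotype and does not say whether any array tumor came from them. The R172H allele was a knock-in at the endogenous p53 locus, brought into the colony from C57BL/6 mice, and the strain of the chromosome around p53 was not given for each tumor. The study worked mainly with male mice, and the labels give no sex. The RNA came from frozen tumor sections, and the study kept only samples that were mostly homogeneous tumor under the microscope. Each level is still a sum over tumor, stromal and immune cells. Fewer cells of a type cannot be told apart from less RNA per cell. Exact ages were not given in the labels. The labels number the tumors 1 to 4 in each genotype without naming the mice behind them, and p-values measure only the spread between these tumors.

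p53 is a transcription factor that is held at low levels by the ubiquitin ligase Mdm2 and accumulates after DNA damage or oncogene signalling. It then binds response elements as a tetramer and activates genes that stop the cell cycle, repair DNA or kill the cell, among them Cdkn1a, Ccng1, Zmat3 and Mdm2 itself. R172H is the mouse equivalent of a human hotspot mutation that unfolds the DNA-binding domain, and the mutant protein is known to accumulate in tumors. The comparison therefore asks which transcripts differ from those of wild-type ras tumors when p53 is present but carries this mutation. On its own it cannot tell the loss of wild-type p53 from an effect of the mutant protein, and KO levels are given for few genes.

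The 4 MT arrays were not alike in their controls. Poly-A transcripts, bacterial RNAs that a laboratory adds to a sample before labelling, gave mean log2 levels of 10.38, 10.5 and 10.56 over 27 probe sets in MT1, MT2 and MT3. The same probe sets were at 4.047 in MT4 and at 4.229 or below in all WT and KO tumors. The 18S ribosomal RNA probe sets were at 6.408, 6.593 and 6.577 in MT1 to MT3 and at 7.657 in MT4, against 7.511 to 9.328 in WT. MT1 to MT3 thus differed from all WT arrays in these controls. MT4 was near all WT arrays in the poly-A controls. In 18S it was near WT4, at 7.511, while the other WT arrays were at 8.904 or above. The KO arrays were at 7.363 to 8.026 in 18S. For this reason many genes are given with their value or place in MT4. The part of the preparation in the differences shared by MT1 to MT3 was not tested.

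The transcript of p53 itself was the first check of the labels. Trp53 had a pair of probe sets, both named through the list of probe sets that the study gives. On one of them the WT tumors were at 8.45, 8.02, 8.33 and 8.53, the KO tumors at 6.37, 6.70, 6.89 and 6.72, and the MT tumors at 9.16, 9.29, 9.13 and 8.18. The MT and WT tumors were thus all above the KO tumors, as their labels require. MT1 to MT3 lay above every WT tumor, while MT4 lay inside the WT range. The difference between MT and WT was 0.61 (SE 0.23), which did not pass (limma, adjusted p = 0.191). On the other the WT tumors were at 7.89, 7.38, 8.01 and 8.01 and the MT tumors at 8.80, 9.03, 8.82 and 7.88, with a difference of 0.81 (SE 0.24, adjusted p = 0.126). Without MT4 both probe sets passed, at 0.86 (adjusted p = 0.0187) and 1.06 (adjusted p = 0.0169).

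**Figure D1:**
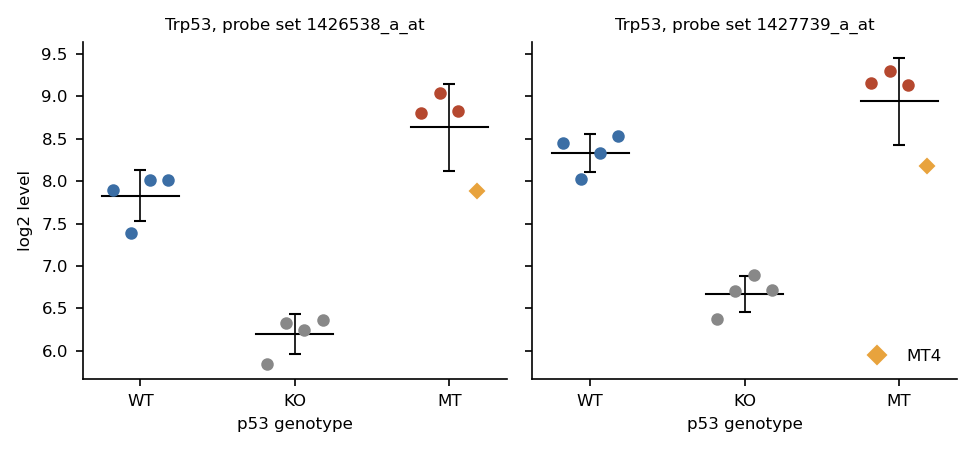
Log2 levels of the pair of Trp53 probe sets in each WT, KO and MT tumor, with the mean of each genotype as a line, the SD as an error bar (n = 4) and MT4 as a diamond. All KO tumors sit below all WT and MT tumors, and MT4 sits among the WT tumors, below MT1 to MT3.

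Between MT and WT tumors 83 probe sets passed an adjusted p of 0.05 (limma on 12 tumors, Benjamini-Hochberg over all 22626), of which 40 were higher and 43 lower in MT. These were 0.367% of the probe sets tested, 0.177% higher and 0.19% lower. Of the 83, 78 carried a single name and stood for 69 genes, and 47 differed by at least 1 on the log2 scale. In all 83 the MT and WT tumors did not overlap, so that MT4 also lay beyond every WT tumor. Over all probe sets tested, 2462, or 10.9%, did not overlap between the groups. The smallest difference among the 83 was 0.565, and the standard errors ran from 0.09 to 0.636. MT4 entered this fit, and its place among the called probe sets is a description.

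The number of calls depended on single tumors. Without WT1 or without MT3 the same fit called 4 probe sets, without WT3 5, without MT1 11 and without MT2 21, whereas without WT2 it called 276, without WT4 578 and without MT4 801. Without KO3, which only helped to estimate the spread, it called 45, of which 44 were among the 83. Where the 8 MT and WT tumors were fitted alone, 11 probe sets passed, of which 9 were among the 83. Mdk, Trip6, 1 probe set of Flot2 and 1 of Ldb3 passed in all 12 fits that left out 1 tumor.

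Most called genes could be checked on further probe sets. Of the 69 genes, 37 had 2 or more probe sets, which made 111 probe sets in all. Of these, 46 were called and 65 were not, and 62 of the 65 had the sign of the call. All probe sets were called in 6 genes: Cap1, Creg1, Flot2, Gm6958, Scamp5 and St3gal6. In Ldb3, Eef1d and Stx18 the probe sets were not all of 1 sign, and no gene had calls in opposite directions.

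The gene with the largest increase in MT was Mdk, which encodes midkine, a secreted heparin-binding growth factor. Its levels were 6.14, 6.0, 6.69 and 6.24 in WT and 10.02, 9.66, 11.29 and 10.55 in MT. The groups were far apart, and MT4 had the second highest level of all 8 tumors. The difference was 4.11 (SE 0.35, a 17.3-fold higher level, limma adjusted p = 0.00162).

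Etv4, an ETS transcription factor that lies downstream of Ras and ERK signalling, was at 7.28, 8.44, 7.99 and 7.70 in WT and at 9.69, 9.50, 10.14 and 8.83 in MT. MT4 was the lowest MT tumor but stayed above WT2, the highest WT tumor. The difference was 1.69 (SE 0.30, adjusted p = 0.0414). Lmo4, a LIM-only cofactor of transcription, was higher by 1.49 (adjusted p = 0.0358), with WT tumors between 8.41 and 9.58 and MT tumors at 10.41 or above. 

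Genes of cell adhesion and the actin skeleton were among the largest increases. Trip6, a zyxin-family LIM protein of focal adhesions, was at 4.95, 5.08, 5.19 and 5.54 in WT and at 9.04, 8.76, 9.52 and 8.02 in MT (difference 3.65, SE 0.32, adjusted p = 0.00162). Flot2, a scaffold protein of membrane microdomains, was at 6.28, 5.94, 6.27 and 5.89 in WT and at 9.36, 9.75, 9.30 and 8.54 in MT (difference 3.14, SE 0.30, adjusted p = 0.0026). In both genes MT4 was the lowest MT tumor and still lay well above the highest WT tumor. The Flot2 probe set given here may also bind other transcripts, and the second one rose by 1.54 (adjusted p = 0.0191).

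Cap1, an adenylyl cyclase-associated protein that helps to recycle actin monomers, stood apart from these genes in MT4. On one probe set its levels were 4.83, 4.98, 4.78 and 6.53 in WT and 7.76, 7.96, 8.24 and 9.89 in MT. Here MT4 was the highest tumor and WT4 the highest of the WT tumors. The difference was 3.18 (SE 0.48, adjusted p = 0.0246), and the other probe set gave 2.81 (adjusted p = 0.0191). The KO tumors were between 5.76 and 6.25 on the same probe set, inside the WT range, whereas for Mdk, Trip6 and Flot2 the KO means of 11.24, 8.73 and 8.52 were near the MT means of 10.38, 8.84 and 9.24. The difference between MT and KO in Cap1 was 2.44 and did not pass (adjusted p = 0.15).

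Col9a3, a chain of the fibril-associated collagen IX, was at 6.67, 7.89, 7.23 and 7.19 in WT and at 10.70, 10.07, 10.96 and 9.20 in MT (difference 2.99, SE 0.41, adjusted p = 0.0228). Its other 2 probe sets did not pass, at 2.06 (adjusted p = 0.0747) and 0.29 (adjusted p = 0.164). Col16a1, another fibril-associated collagen, was higher by 1.61 (adjusted p = 0.0191), and Efemp2, an extracellular glycoprotein needed for elastic fibers and named through the study's probe set list, by 1.78 (adjusted p = 0.0358). In Col9a3, Col16a1 and Efemp2 MT4 was the lowest of the MT tumors. Dag1, which encodes dystroglycan, a receptor for laminin, passed on 1 of 4 probe sets (1.14, adjusted p = 0.0386), and the other 3 differed by 0.75 to 1.34. Over the list of 23 fibroblast and matrix genes none was called, with 13 higher and 10 lower means in MT.

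Chrnb1, the beta subunit of the muscle acetylcholine receptor and a close neighbor of Trp53 on chromosome 11, was at 4.72, 5.49, 4.87 and 6.48 in WT and at 7.71, 7.97, 7.91 and 8.40 in MT. MT4 was the highest tumor, and the difference was 2.61 (SE 0.38, adjusted p = 0.0246). Slc20a1, a sodium-phosphate cotransporter, passed on 1 probe set at 1.56 (adjusted p = 0.0246) and not on the other, at 1.08 (adjusted p = 0.148). Sort1, a sorting receptor of the Golgi and endosomes, passed on 1 of 3 probe sets at 1.49 (adjusted p = 0.0246). Its other 2, the brightest among them, differed by 0.44 and 0.68 and did not pass. S100pbp was higher by 1.40, Plppr4 by 1.35 and Kctd10 by 1.18, with adjusted p between 0.0337 and 0.0409. Bcl2l1, which encodes the survival protein Bcl-xL, passed on 1 of its 4 probe sets (1.02, adjusted p = 0.0246), and the other 3 were higher in MT without passing, by 0.28 to 1.22.

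The largest decrease was that of St3gal6, a sialyltransferase that caps galactose residues of glycoproteins. It was at 10.33, 7.73, 9.04 and 9.04 in WT and at 5.28, 4.93, 4.88 and 4.20 in MT. MT4 was the lowest tumor of all, and the WT tumors ranged widely. The difference was -4.21 (SE 0.64, adjusted p = 0.0246), and the second probe set gave -3.26. On the arrays without the poly-A controls, the probe sets for these controls had a mean level of 4.23 or below, so no fold is given for St3gal6. Gm6958, a predicted gene on the same chromosome 16, was lower on both of its probe sets, with differences of -3.49 (adjusted p = 0.0446) and -2.14 (adjusted p = 0.0248). On the probe set with the larger difference MT1 was at 3.78, also below 4.23.

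Ldb3, a PDZ-LIM protein best known from the Z-disc of muscle, was lower on a pair of its 3 probe sets. On the one that passed in every fit with 1 tumor left out the WT tumors were at 6.86, 6.44, 7.03 and 7.10 and the MT tumors at 5.61, 5.55, 5.64 and 5.55. The MT tumors were nearly alike, and the difference was -1.27 (adjusted p = 0.00571). On the other called probe set WT2, at 4.78, stood apart from the other WT tumors at 6.98 to 7.10 and lay near the MT tumors at 3.76 to 4.16 (difference -2.54, adjusted p = 0.0358). The MT levels on that probe set lay below 4.23, the bound given above for poly-A probe sets on arrays without these controls. The third probe set did not pass and had a difference of 0.04. 

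Smpdl3a, a secreted phosphodiesterase related to acid sphingomyelinase, was at 9.54, 9.55, 9.64 and 9.51 in WT and at 7.33, 8.03, 7.67 and 7.55 in MT. The WT tumors were nearly alike, and the difference was -1.92 (SE 0.23, adjusted p = 0.0155). Creg1, a secreted glycoprotein that lysosomes also hold, was lower on both probe sets, with differences of -1.44 and -1.32 (adjusted p = 0.0246 for each). Gnptab, a subunit of the enzyme that tags lysosomal proteins with mannose phosphate, decreased by 1.28 on 1 of 3 probe sets (adjusted p = 0.0228), with MT tumors between 6.03 and 6.67 and WT tumors between 7.36 and 7.97. The other 2, the brightest among them, did not pass, with differences of -0.44 (adjusted p = 0.202) and -0.30 (adjusted p = 0.291). Over the list of 21 lysosome genes none was called and the median difference was 0.0155.

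Igf1, insulin-like growth factor 1, was at 7.49, 7.46, 7.79 and 7.60 in WT and at 6.59, 6.10, 6.11 and 6.78 in MT on the probe set with the largest difference. The groups were well apart with MT4 the highest MT tumor, and the difference was -1.19 (SE 0.16, adjusted p = 0.0202). A second probe set passed at -0.92 (adjusted p = 0.0191), and the remaining one did not, at -0.66 (adjusted p = 0.0621). G0s2, an inhibitor of triglyceride lipase, had a difference of -2.12 and Glipr1 one of -1.55. Arhgap9, a GTPase-activating protein of blood cells, had a difference of -1.43, Ddo, D-aspartate oxidase, one of -1.36, and Traf3ip2, an adaptor in interleukin signalling, one of -0.97. Arhgap9 passed on 1 of 4 probe sets, and the other 3 differed by -1.30 to -0.75. The adjusted p of these 5 genes where they passed lay between 0.0258 and 0.0493. 

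Slc25a5, the mitochondrial ADP/ATP carrier encoded on the X chromosome, passed on 1 of 8 probe sets (-1.17, adjusted p = 0.0464). All 8 had a lower mean in MT, with differences of -1.90 to -0.60, and 6 of them are of a kind (marked x by the maker) whose oligonucleotides may also bind other transcripts. Ndufs5, a subunit of complex I, decreased by 0.85 (adjusted p = 0.0467).

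**Figure D2:**
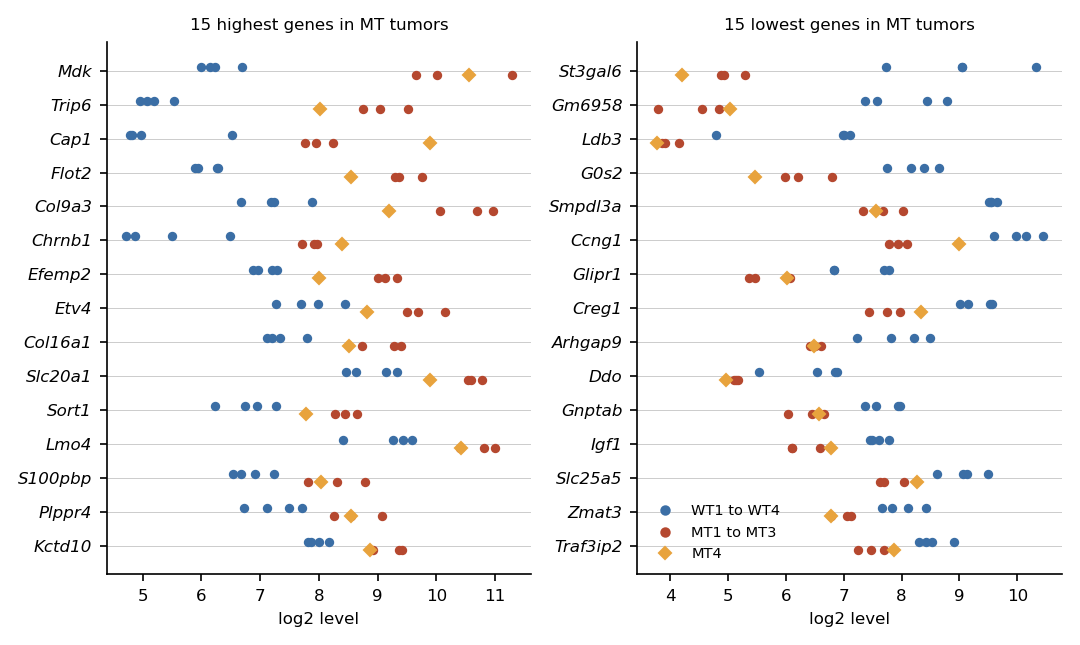
Log2 levels in each WT and MT tumor of the 15 genes with the largest increase (left) and the 15 with the largest decrease (right) among called probe sets with a single gene name, MT4 drawn as a diamond. In each gene the MT tumors, MT4 included, lie beyond the WT tumors. Among the MT tumors, MT4 is the nearest to WT in genes such as Trip6 and Ccng1 and the farthest from WT in Cap1 and St3gal6.

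The direct targets of p53 were examined as a list of 38 genes, of which 34 were measured. With each gene read at its brightest probe set, 3 were lower in MT and none was higher, where 0.202% of all 12399 genes were lower and 0.218% higher. The 3 were Ccng1, Coq8a and Zmat3. The median difference of the 34 genes was -0.236, against -0.00821 over all genes. It was -0.299 in MT4 and -0.236 in MT1 to MT3. At an unadjusted p below 0.05, 13 targets were lower and 1, Xpc, was higher, where 9.98% of all genes were lower and 8.74% higher.

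Ccng1 encodes cyclin G1, a partner of a phosphatase that acts on Mdm2. It was at 9.99, 10.44, 10.15 and 9.60 in WT and at 8.10, 7.79, 7.95 and 8.98 in MT. MT4 was the nearest to the WT tumors but below all of them, and the difference was -1.84 (SE 0.26, adjusted p = 0.0246). A second probe set passed at -1.42 (adjusted p = 0.0246) and the other missed at -1.08 (adjusted p = 0.0549). 

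Zmat3, an RNA-binding zinc finger protein, was at 8.10, 7.66, 8.42 and 7.84 in WT and at 6.78, 7.13, 7.05 and 6.79 in MT (difference -1.07, SE 0.17, adjusted p = 0.0248). Coq8a, a kinase-like protein of coenzyme Q synthesis, was at 7.89, 7.58, 7.83 and 7.55 in WT and at 6.91, 6.79, 6.98 and 7.09 in MT (difference -0.77, SE 0.12, adjusted p = 0.0248). The groups were separate in both genes, and MT4 was the second lowest MT tumor for Zmat3 and the highest for Coq8a. A second Coq8a probe set differed by -0.05 and did not pass.

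Other targets did not overlap between the groups yet missed the threshold. Cdkn1a, the cell cycle inhibitor p21, was at 7.73, 8.82, 8.55 and 8.22 in WT and at 6.43, 7.64, 6.66 and 6.71 in MT, with a difference of -1.47 (SE 0.29, adjusted p = 0.0565). Apaf1, the core of the apoptosome, differed by -0.68 (adjusted p = 0.0565), and Sesn1 and Sesn2, stress proteins that restrain mTOR, by -0.65 (adjusted p = 0.059) and -0.68 (adjusted p = 0.124). Phlda3, an Akt inhibitor, differed by -0.97 (adjusted p = 0.0705) and Aen, an exonuclease, by -0.63 (adjusted p = 0.0768). With the called ones these made 9 targets of 34 with separate groups, all lower in MT, where 6.5% of all genes had separate groups with lower values in MT and 4.53% with higher ones. Mdm2 was at 9.0, 8.86, 8.91 and 9.32 in WT and at 8.64, 8.90, 9.05 and 8.75 in MT, ranges that overlap, with a difference of -0.19 (adjusted p = 0.416).

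The promoters of 3 of these targets are shown because they place the called gene Ccng1 beside Cdkn1a, whose groups were separate without passing, and Mdm2, whose groups overlapped. The sequences are RefSeq promoters of GRCm38.p6, from 250 bases before to 50 after the transcription start, 5′ to 3′ on the strand of the gene. Capitals mark the p53 decamer, a 10-base motif that p53 response elements hold in tandem and that reads as itself on the opposite strand, so that a search of one strand covers both. The Ccng1 promoter is chr11:40755237-40755536 on the minus strand, with its motif 185 bases before the start. The Cdkn1a promoter shown is chr17:29090729-29091028 on the plus strand, with motifs 73 and 51 bases before the start. Another Cdkn1a promoter, chr17:29093519-29093818 on the same strand, held no motif and is not shown. The Mdm2 promoter is chr10:117710709-117711008 on the minus strand, with its motif 186 bases before the start.
Ccng1: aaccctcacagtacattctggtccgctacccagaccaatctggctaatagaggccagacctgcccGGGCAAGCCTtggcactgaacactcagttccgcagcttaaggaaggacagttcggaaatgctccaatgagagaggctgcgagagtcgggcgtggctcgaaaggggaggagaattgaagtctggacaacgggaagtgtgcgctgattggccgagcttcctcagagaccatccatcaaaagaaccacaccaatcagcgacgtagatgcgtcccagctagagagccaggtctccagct
Cdkn1a: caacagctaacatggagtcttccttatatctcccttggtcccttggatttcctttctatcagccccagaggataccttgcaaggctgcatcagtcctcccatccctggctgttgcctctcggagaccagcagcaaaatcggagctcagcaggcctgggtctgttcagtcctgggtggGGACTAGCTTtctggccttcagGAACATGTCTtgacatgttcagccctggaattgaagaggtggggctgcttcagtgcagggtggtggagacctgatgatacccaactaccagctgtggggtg
Mdm2: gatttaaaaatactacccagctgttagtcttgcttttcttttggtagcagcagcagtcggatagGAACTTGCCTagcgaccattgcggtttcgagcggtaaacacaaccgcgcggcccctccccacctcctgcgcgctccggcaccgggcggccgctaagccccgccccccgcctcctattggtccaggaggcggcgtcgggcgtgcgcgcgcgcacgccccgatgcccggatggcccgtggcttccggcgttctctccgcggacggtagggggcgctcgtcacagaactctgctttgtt

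Of the 34 measured targets 26 had a promoter in the table, and 9 of these, or 34.6%, held the motif. Over all 9891 measured genes with a promoter the share was 8.6%, and over all 32851 promoters of this length it was 8.36%. The motif was present in the promoters of genes that passed, that missed the threshold and that overlapped between the groups, and neither of the Coq8a promoters in the table held it. A match is a description of the letters in these windows and not a binding site.

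The CDK inhibitors did not move in 1 direction. Of 7 measured, none was called, and their median difference was -0.126. Apart from Cdkn1a, Cdkn2b, the inhibitor p15, was at 5.42, 7.85, 6.84 and 5.84 in WT and at 8.13, 8.40, 8.43 and 9.43 in MT, groups that do not overlap (difference 2.11, SE 0.47, adjusted p = 0.0699). Cdkn2a, which encodes p16 and p19Arf, was at 5.15, 5.51, 4.95 and 5.30 in WT and at 6.5, 5.48, 7.42 and 6.79 in MT (difference 1.32, adjusted p = 0.0845). MT2 lay inside the WT range for Cdkn2a and the other MT tumors lay above it.

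Output genes of the Ras-MAPK pathway are induced when ERK is active, and several of them feed back on it. Of 19 measured, 17 had a higher mean in MT, 10 at an unadjusted p below 0.05 (8.74% of all genes), and 1, Etv4, was called. The median difference was 0.678, against -0.00821 over all genes, and it was 0.544 in MT4. The feedback inhibitors Spred2 (1.29, adjusted p = 0.0652), Spry4 (1.08, adjusted p = 0.0653) and Spry1 (1.63, adjusted p = 0.1) followed Etv4 in order of p. Spred2 and Spry4 did not overlap between the groups, with WT at 8.57 to 9.35 and 5.10 to 6.06 and MT at 9.53 to 10.97 and 6.40 to 7.26. Every tumor of the comparison carried the same ras transgene. The list also varied among the WT tumors, with a median of -0.308 from the WT mean in WT1 and 0.231 in WT2.

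Of 28 focal adhesion and actin genes, Trip6 and Cap1 were called higher and none was called lower, and the median difference was 0.285 (0.304 in MT4). Over all genes 0.218% were called higher and 0.202% lower. At an unadjusted p below 0.05, 8 of the 28 were higher and 1 lower (8.74% and 9.98% of all genes). The groups were separate in 6 with higher and 1 with lower values in MT (4.53% and 6.5% of all genes). Pdlim7, another LIM protein of actin filaments, was at 6.12 to 6.95 in WT and 7.51 to 9.30 in MT (difference 1.77, adjusted p = 0.0516). Pfn1, the actin-binding protein profilin, was at 10.92 to 11.33 in WT and 11.58 to 12.42 in MT (difference 1.01, adjusted p = 0.0705). Both had separate groups and MT4 as the lowest MT tumor. Itgav, the integrin subunit alpha V, differed by 0.87 (adjusted p = 0.0796).

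Of 73 respiratory chain genes 1, Ndufs5, was called lower, 15 were lower and 5 higher at an unadjusted p below 0.05 (9.98% and 8.74% of all genes), and the median difference was -0.106. A further complex I subunit, Ndufs8, was at 10.86 to 11.49 in WT and 10.36 to 10.73 in MT on the probe set used for the list (difference -0.74, adjusted p = 0.0577), and it passed on another probe set (-0.68, adjusted p = 0.0343). Of 46 ribosomal protein genes none was called, 36 had a lower mean in MT and 13 of these were at an unadjusted p below 0.05, again against 9.98% of all genes (median -0.156). Rps6, the ribosomal protein of the small subunit that S6 kinase phosphorylates, was at 9.66, 9.21, 9.52 and 8.99 in WT and at 7.77, 7.45, 6.94 and 8.96 in MT (difference -1.57, adjusted p = 0.0705). MT4 lay just below the lowest WT tumor there, far from MT1 to MT3.

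Proliferation and apoptosis lists held no call on the probe sets used for them. The medians were 0.0472 for 40 mitosis genes, 0.0945 for 35 DNA replication genes, -0.0458 for 9 apoptosis inhibitors and -0.0595 for 15 apoptosis promoters. Among the mitosis genes Cdc20, an activator of the anaphase-promoting complex, was at 10.40, 9.32, 9.93 and 9.63 in WT and at 9.09, 8.72, 9.01 and 9.66 in MT (difference -0.70, adjusted p = 0.154). Mybl2, a cell cycle transcription factor, overlapped between the groups with a difference of 0.54 (adjusted p = 0.158). Within WT, the median of the mitosis list ran from -0.372 in WT2 to 0.409 in WT1, a spread wider than the difference between the genotypes.

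The tissue labels were checked with markers of the salivary gland. Bpifa2, a secretory protein of salivary glands, was at 13.51 to 13.78 in WT and 13.14 to 13.85 in MT, and Aqp5, the water channel of acinar cells, at 11.22 to 12.34 and 10.67 to 12.64. Over 14 acinar and demilune markers (secretory cells of the gland) the median difference was -0.652 and -0.977 in MT4. Of these, 7 were lower at an unadjusted p below 0.05 (9.98% of all genes) and none was called on the probe set used. A probe set with several gene names, among them the listed markers Prb1 and Prpmp5, was left out of the list. It was called lower in MT (-2.10, adjusted p = 0.0246). Lpo, a peroxidase of saliva, was at 12.19, 12.44, 12.37 and 11.85 in WT and at 10.99, 8.94, 10.55 and 8.22 in MT (difference -2.54, SE 0.60, adjusted p = 0.0768). Car6, the secreted carbonic anhydrase of saliva, was at 12.63 to 13.37 in WT and at 11.90, 11.59, 10.75 and 8.39 in MT (-2.31, adjusted p = 0.124), and Dcpp1 differed by -2.44 (adjusted p = 0.076). In Lpo and Car6 the groups did not overlap and MT4 was the lowest tumor.

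Among the markers of other cells no gene was called on the probe set used for the list. Of 19 macrophage markers 18 had a lower mean in MT, 7 at an unadjusted p below 0.05 (9.98% of all genes), with a median difference of -0.311 (-0.424 in MT4). C1qb, a chain of complement C1q, was at 10.22, 10.61, 10.36 and 10.71 in WT and at 8.86, 9.31, 7.92 and 9.94 in MT (-1.47, adjusted p = 0.0705), and another of its probe sets passed (-0.92, adjusted p = 0.0246). Tyrobp, a signalling adaptor, differed by -0.97 (adjusted p = 0.0705) and Lyz2, lysozyme, by -1.31 (adjusted p = 0.081). The mean level of the list was 8.5 to 8.88 across the WT tumors and 7.67 to 8.77 across the MT tumors. The part of these cells in the differences of other genes was not tested.

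The B and plasma cell markers turned on a single tumor. Of 8 B and plasma cell markers the median difference was -0.961, and it was -0.0889 without WT1. Jchain, the joining chain of secreted antibodies, was at 12.4 in WT1 and at 5.71 to 6.48 in the other WT tumors. The median of 13 T and NK cell markers was -0.464 and -0.127 without WT1. Of these markers 12 had a lower mean in MT, 4 at an unadjusted p below 0.05 (9.98% of all genes). In 2 the groups were separate with lower values in MT (6.5% of all genes). The median of this list from the WT mean was -0.535 to -0.432 across the MT tumors and -0.394 to 0.658 across the WT tumors. The mean level of the B and plasma cell list ran from 5.69 to 9.4 across the WT tumors and from 5.96 to 6.07 across the MT tumors.

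Of 15 luminal epithelial markers 14 had a higher mean in MT (median 0.319), led by Epcam at 11.79 to 12.51 in WT and 12.61 to 13.04 in MT (0.67, adjusted p = 0.0786). The median was 0.113 without WT1 and 0.69 without WT2. The medians were -0.108 for 19 basal and myoepithelial markers, 0.0989 for 23 fibroblast and matrix genes, -0.163 for 14 endothelial markers, -0.254 for 8 adipocyte markers, 0.00641 for 17 skeletal muscle markers, -0.229 for 9 granulocyte markers, 0.0989 for 8 Schwann cell markers, -0.263 for 3 red blood cell markers and -0.204 for 14 granular duct markers. The skeletal muscle list, of interest beside Ldb3 and Chrnb1, had mean levels of 5.48 to 5.74 in WT and 5.36 to 6.1 in MT.

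Antigen presentation genes varied among the MT tumors. The median of 9 MHC class I genes was -0.661, and in MT1 to MT4 it was -0.706, 0.0934, -1.71 and 0.00035 from the WT mean. That of 7 MHC class II genes was -0.173, and -0.095, 0.659, -1.12 and 0.622 in the same tumors. In both lists MT3 was lowest, and MT2 and MT4 lay near or above WT. B2m, the light chain of class I molecules, was at 12.59 to 13.06 in WT and at 11.83, 12.42, 10.36 and 13.10 in MT (-0.84, adjusted p = 0.439). MT3 was the lowest tumor and MT4 the highest. No other list held a call. The remaining medians were -0.0143 for 21 interferon response genes, -0.000383 for 19 cholesterol and 0.178 for 9 fatty acid synthesis genes, 0.18 for 23 glycolysis and hypoxia genes, -0.0718 for 22 genes of the unfolded protein response, 0.0411 for 38 proteasome subunits, 0.0989 for 15 mesenchymal transition genes and 0.0413 for 24 matrix proteases and inhibitors.

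**Figure D3:**
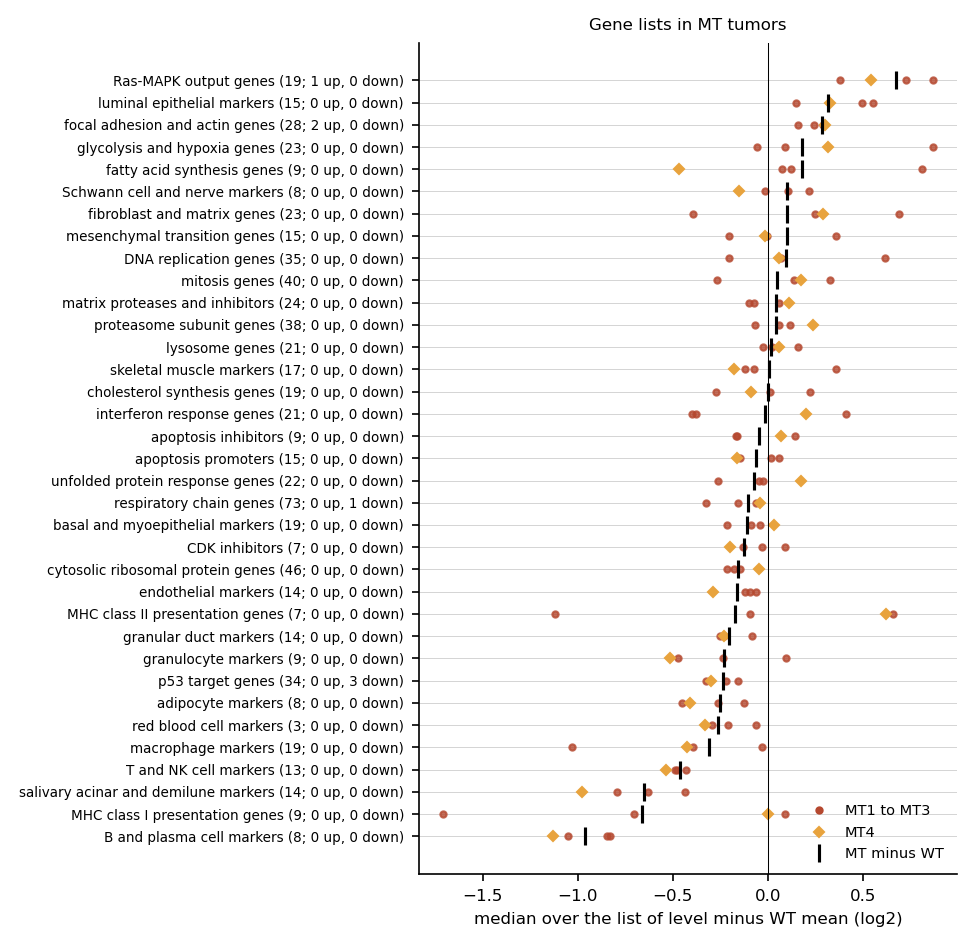
Median log2 difference from the WT mean of each of 35 gene lists, with 1 probe set per gene, for MT1 to MT3 (circles), MT4 (diamonds) and MT minus WT (upright bars). The brackets give the genes measured and those called higher and lower. The Ras-MAPK output genes sit highest at 0.678 and the B and plasma cell markers lowest at -0.961, and the MT tumors are widely spread in both antigen presentation lists.

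The called genes were then counted by chromosome. With each gene read at its brightest probe set, chromosome 10 carried 8 called genes among 560 measured, all lower in MT. Its share of 1.43% was the highest of any chromosome, where 0.419% of all genes were called. Over all probe sets the called genes of this chromosome were Smpdl3a, Glipr1, Arhgap9, Ddo, Gnptab, Igf1, Traf3ip2, Polr2e (a subunit shared by the RNA polymerases, -0.76, adjusted p = 0.0246, and -0.16 on a second probe set that did not pass), Nrbf2 (-0.64, adjusted p = 0.0484) and 2310075K07Rik (-0.58, adjusted p = 0.0337). The median difference over the chromosome was -0.165, and 73.8% of its genes had a lower mean in MT, where 51.2% did over all genes. In MT1 to MT4 the median was -0.189, -0.165, -0.114 and -0.194 from the WT mean. When the genes were cut by their order into 10 equal parts, each part had a median below 0, both in MT as a whole (-0.28 to -0.0872) and in MT4.

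Chromosome 2 went the other way. Of its 965 genes 8 were called higher and 1 lower, a share of 0.933% against 0.419% of all genes, with a median of 0.134 (0.189 in MT4), and 32.7% of genes had a lower mean in MT. Mdk, Col9a3, Slc20a1, Inpp5e (a phosphatase of inositol lipids, 1.08, adjusted p = 0.0258, and 0.46 on a second probe set that did not pass) and Csnk2a1 (the catalytic subunit of casein kinase 2, 0.70, adjusted p = 0.0246) were among the called. Only 1 of 6 Csnk2a1 probe sets passed, and the other 5 differed by 0.07 to 0.57. On the X chromosome none of 402 genes was called at its brightest probe set, and Slc25a5 and Pqbp1 (-0.73, adjusted p = 0.0337) were called lower on others. The median was -0.173 (-0.177 in MT4), and 73.1% of the genes had a lower mean in MT. Chromosomes 2, 10 and X were the 3 of 20 (15%) on which the medians of the 4 MT and the 4 WT tumors did not overlap.

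On chromosomes 1 and 11 MT4 differed from the other MT tumors. The median of chromosome 1 was -0.197 in MT1 to MT3 and -0.00283 in MT4, and that of chromosome 11, which holds Trp53, was 0.147 in MT1 to MT3 and -0.00718 in MT4. Of 100 measured neighbors of Trp53 in gene order, 50 on each side, 72 had a higher mean in MT and 1, Chrnb1, was called. Over all genes 0.419% were called, and on chromosome 11 as a whole 668 of 1043 genes had a higher mean in MT. The median of the neighbors was 0.286 in MT1 to MT3 and 0.0283 in MT4. MT4 in turn had medians of -0.268 on chromosome 15, -0.292 on chromosome 19 and -0.192 on chromosome 6, where MT1 to MT3 were at 0.0415, -0.037 and 0.0759. DNA copy number was not measured, and the part of the strain background or copy number in these shifts was not tested.

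**Figure D4:**
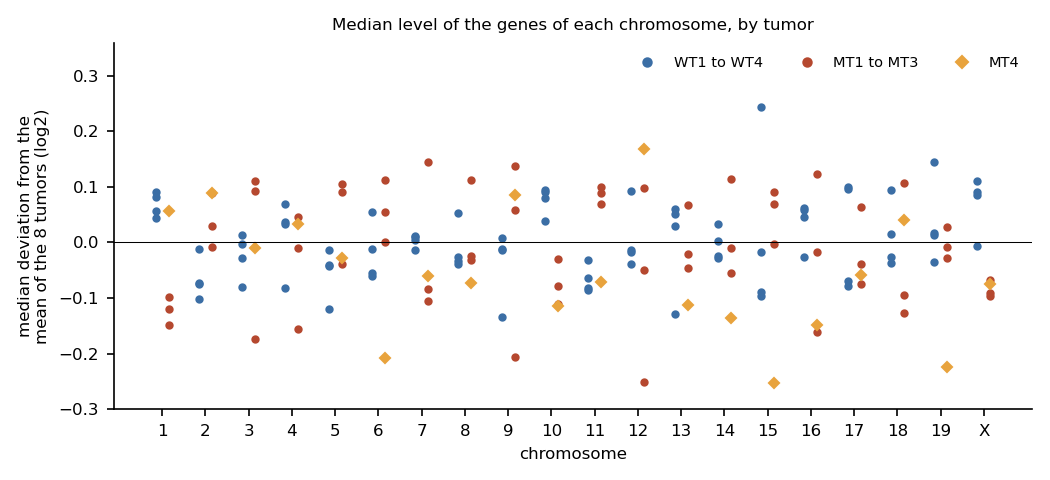
Median over the genes of each chromosome, 1 to 19 and X, of the log2 deviation from the mean of the 8 tumors, for each WT tumor and MT1 to MT3 (circles) and MT4 (diamonds). The MT tumors lie below all WT tumors on chromosomes 10 and X and above them on chromosome 2, while MT4 parts from MT1 to MT3 on chromosomes 1, 6, 11, 15 and 19.

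The difference between MT1 to MT3 and MT4 was then examined across all probe sets. Without MT4, 801 probe sets passed between MT1 to MT3 and WT, or 3.54% of those tested, 399 higher and 402 lower. All 83 called probe sets were among them. Of the 801, MT4 lay beyond all WT tumors on the same side in 375, inside the WT range in 310, and beyond all WT tumors on the opposite side in 116. Over all probe sets tested, MT4 lay beyond all WT tumors on the side of MT1 to MT3 in 34.2%.

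The genes named next were chosen after their values were seen, as examples of these 3 kinds. Mia, a small secreted protein first described in melanoma, was at 5.63 to 6.81 in WT and at 10.43, 10.77, 10.97 and 7.40 in MT, so that MT4 was above WT but far below the others. Comp, a matrix protein of cartilage, was at 6.37, 5.57, 6.91 and 5.60 in WT and at 10.80, 9.72, 10.36 and 5.61 in MT. Notch3, a receptor of the Notch pathway, was at 4.49 to 5.09 in WT and at 6.93, 6.94, 6.85 and 4.78 in MT. For Comp and Notch3 MT4 lay inside the WT range, and without MT4 the differences were 4.18 (adjusted p = 0.00892) and 2.13 (adjusted p = 0.000845). On 1 of its 4 probe sets Mapre2, a microtubule end-binding protein, was at 8.63, 7.60, 8.24 and 8.48 in WT and at 4.56, 5.66, 4.54 and 9.20 in MT, with MT4 above and MT1 to MT3 below every WT tumor. Without MT4 its difference was -3.32 (adjusted p = 0.00409), and none of the other 3 probe sets passed.

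The opposite check let the difference rest on MT4 alone, by fitting the poly-A side of the arrays as a block, so that 1 tumor stood for the genotype and is assumed to vary like the others. This fit called 19 probe sets, or 0.084%, 18 higher and 1 lower. Its difference is that of MT4 from WT, so the sign of the 83 called probe sets was set by MT4 lying beyond all WT tumors. Of the 83, 4 passed: both of Cap1, Mdk (4.28, adjusted p = 0.0297) and Trip6 (2.83, adjusted p = 0.0462). Some other calls of this fit rested on levels that MT4 did not share with MT1 to MT3. BC018473 was at 4.3 to 4.91 in WT, at 4.13 to 4.38 in MT1 to MT3 and at 10.3 in MT4. Hspb8, a small heat shock protein, was at 6.46 to 7.25 in WT, 7.30 to 7.73 in MT1 to MT3 and 9.33 in MT4. In Hspb8 MT1 to MT3 thus also lay above every WT tumor, though below MT4. Car6 was the probe set called lower (-4.58, adjusted p = 0.0462). Among the 40 probe sets called higher in the main comparison, MT4 was at or above the median of MT1 to MT3 in 11, and among the 43 called lower it was at or below that median in 14.

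**Figure D5:**
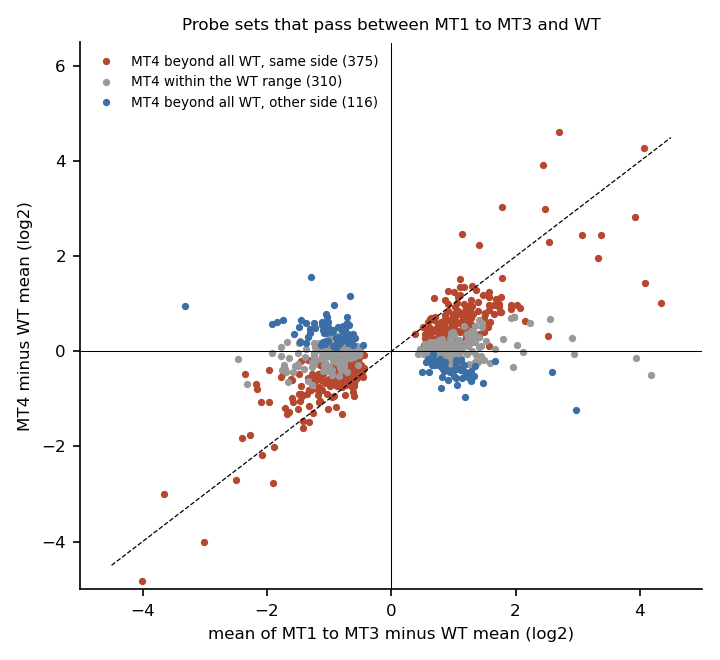
Log2 difference from the WT mean of MT4 (vertical) against that of the mean of MT1 to MT3 (horizontal) for the 801 probe sets that passed without MT4, colored by where MT4 lay, with a dashed line where both differences are equal. In 375 MT4 lay beyond all WT tumors on the same side, in 310 inside the WT range (near the horizontal line at 0) and in 116 beyond them on the opposite side.

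Transcripts of the Y chromosome and Xist, which silences an X chromosome in female cells, were read as a check of the X chromosome values. The 3 Xist probe sets were at 3.77 to 6.18 over all 12 tumors, with no tumor apart. Eif2s3y, a Y-linked translation factor, was at 8.29, 6.70, 7.82 and 8.23 in WT and at 6.71, 3.78, 5.04 and 9.37 in MT. Uty, a Y-linked gene of the histone demethylase family, was on its brightest probe set at 8.16, 6.26, 7.98 and 8.37 in WT and at 7.07, 4.14, 4.74 and 9.10 in MT. In both genes MT2 and MT3 were the lowest MT tumors and MT4 the highest of all 8, and neither difference passed (adjusted p = 0.526 and 0.437).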

How the data were processed

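RNA from 12 salivary tumors (4 WT, 4 KO and 4 MT) was hybridised to Affymetrix mouse expression arrays. The deposited table holds log2 levels that the authors made from the probe intensities by RMA, with background correction, quantile normalization over the arrays and median polish. The submitters' notes name both RMA and MAS5, without versions, and the values are on the log2 scale. Quantile normalization forces a common distribution on all arrays, so a change of most transcripts in 1 direction would not be seen. The number of arrays limits the precision.

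Without the control probe sets, 22626 remained and were tested with limma 3.58.1 in R 4.3.3. The fit had 1 mean per genotype over 12 tumors (9 residual degrees of freedom), contrast MT minus WT, 2-sided, adjusted by Benjamini-Hochberg with a threshold of 0.05. KO tumors entered it so that 3 genotypes shared 1 estimate of spread. Script checks ran on simulated data. Probe sets were named by the platform annotation: 20380 had 1 symbol, 691 several and 1546 none, and 9 were named only by the study's list. For lists and chromosomes each gene was read at its probe set with the highest mean. Lists were described by counts and medians, without a test.

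The 15 highest and 15 lowest called genes whose groups did not overlap were named, with Trp53, the members of smallest p of each list, genes called on all their probe sets, called genes of the 2 chromosomes with the highest shares, and genes called in every fit that left out 1 tumor. The members and lists were chosen with earlier results of these data known. The alternatives left out each tumor, fitted 8 tumors, or blocked the poly-A side or the replicate number, and others changed the normalization, the filter, the variance model, the weights, the test or the threshold. The replicate numbers did not pair the tumors: same-numbered MT and WT tumors deviated together with correlations of 0.0479, 0.102, 0.125 and 0.0993.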

Additional observations from a re-analysis of the deposited data

Results flagged for a closer look

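Among the named genes, 198 groups of 4 tumors were searched for a tumor that lay far from the other 3, and 13 were found, where a rate of 1 in 20 gives 9.9. In MT4 there were 3 of these: Trp53 at 8.18 and Apaf1 at 6.54, both on the side of WT, and Rpl27a at 7.74, inside the WT range. In WT1 there were 4, all higher than the other WT tumors: Jchain at 12.4, Alas2 at 7.62, H2-Oa at 7.43 and Ciita at 6.27. Jchain, H2-Oa and Ciita are genes of B cells and antigen presentation, and Alas2 is an enzyme of red cell heme synthesis.

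In WT2 Ldb3 was at 4.78, Rfc2 at 8.07 and Cflar at 7.8, each below the other WT tumors. In WT4 Cap1 was at 6.53 and Mybl2 at 5.91, above the others, and in MT1 Tnfrsf17 was at 4.83. Of these genes Cap1 and Ldb3 were called, and in both the tumor apart lay on the side of MT.

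The poly-A control probe sets, which enter no comparison, gave a signal in MT1 to MT3. The lowest of these means was 10.38, and the highest of the other 9 tumors was 4.229.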

How the results depend on the processing

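The call of 83 probe sets (40 higher, 43 lower) was recomputed under each alternative. Leaving out 1 tumor gave between 4 and 801 calls. The 8 tumors alone gave 11 and the poly-A block 19. The replicate number as a block gave 87 (42 higher, 45 lower), 47 of them among the 83, and the cause of this turnover was not tested. Leaving out dim probe sets gave 133 (78 higher, 55 lower), centering of the arrays 147 (50 higher, 97 lower, with the median of all probe sets at -0.0651), quantile normalization 131 (47 higher, 84 lower) and cyclic loess 142 (59 higher, 83 lower). Array weights gave 4973, with weights from 0.4501 for WT2 to 3.304 for WT3. The trend and robust variance model gave 56 and 1 probe set per gene 61, both within 1.5 times the main count. A Student t-test on the 8 MT and WT tumors gave 0 after Benjamini-Hochberg, and 12 at an adjusted threshold of 0.1. It gave 3954 at an unadjusted p below 0.05, against 4382 by limma. Thresholds of 0.01 and 0.1 gave 4 and 618, and a difference of at least 1 gave 47. Among the named genes the sign turned in Trp53 (-0.151) and Hsp90b1 (0.107) under the poly-A block and in Ciita (0.00124) without WT1. None of the 3 was called. The list medians of p53 targets (-0.331 to -0.203), Ras-MAPK output genes (0.528 to 0.753), focal adhesion and actin genes (0.222 to 0.361), acinar markers (-0.977 to -0.475) and macrophage markers (-0.554 to -0.241) kept their sign under every alternative run. The median of chromosome 11 changed sign under the poly-A block only, and those of chromosomes 1, 2, 10 and X under none.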
